A study of Mus musculus with 4 samples.

Results

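Conventional CD4 T cells were read from single-cell RNA libraries of transplanted mouse hearts, as the T cells that carried Cd4 RNA and neither Cd8 nor Foxp3 RNA. They numbered 591 cell barcodes, out of 4915 T cell barcodes and 19509 barcodes of all kinds kept from the allogeneic grafts, and out of 30895 kept from all grafts. A barcode was kept if it held at least 500 unique molecular identifiers (UMIs, each standing for 1 captured RNA molecule), at least 300 genes and at most 20% mitochondrial UMIs. The conventional CD4 T cells were selected on their raw UMIs alone: at least 2 over Cd3d, Cd3e and Cd3g, the chains of the CD3 complex, at least 1 of Cd4, none of Cd8a, Cd8b1 or Foxp3, and at most 2 over the myeloid genes Csf1r, Fcgr1 and Cd68. The allogeneic group was 3 libraries of hearts from a genetically different donor, collected 5 days after transplantation, with 156, 340 and 95 such cells in replicates 1, 2 and 3. The isogeneic group was 1 library of a heart transplanted between genetically identical animals, also at day 5, labelled replicate 2, with 11. The labels name no strain, sex, age, drug treatment, genetic change or cell sort for either group, and the cells were captured with the Chromium Single Cell 3' v3.1 chemistry, which reads the 3' end of each RNA. The labels do not tie the replicates to separate animals. The p-values of the gene comparisons below therefore draw only on how far class differences within a library varied between these libraries. That variation may be technical. For each gene the test also borrowed from the variation of all genes tested. A small p-value thus does not stand for the agreement of 3 libraries in that gene alone.

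CD4 T cells recognise peptides held on MHC class II and act mostly on other cells. They help B cells and CD8 T cells through contact signals such as CD40 ligand and through secreted cytokines, and they are grouped by their main cytokine and master regulator: T helper 1 cells (Tbx21, interferon gamma), T helper 2 cells (Gata3, IL-4 and IL-13), T helper 17 cells (IL-17), follicular helper cells (Bcl6, IL-21) and regulatory cells (Foxp3). In heart allografts CD4 T cells are known as drivers of acute rejection, both through this help and through their own cytokines. The study's title concerns the checkpoint protein VISTA (gene Vsir) in macrophages, and the comparisons here describe the CD4 T cells that shared the tissue with those macrophages.

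Genes that the selection did not read differed between the class and CD8 T cells. Icos, an inducible co-stimulatory receptor, had at least 1 UMI in 92.3%, 86.5% and 70.5% of the conventional CD4 T cells of replicates 1, 2 and 3. Tnfrsf4, which encodes the co-stimulatory receptor OX40, had a UMI in 75.6%, 77.6% and 51.6%. Both genes were named as markers of the class with earlier results of these data known, so they are no independent check. Tnfrsf4 was higher still in T cells with Foxp3 RNA and does not set the class apart from them. Zbtb7b, the transcription factor that commits thymocytes to the CD4 lineage, stood at 29.7, 23.4 and 24.5 CPM (counts per 1000000 UMIs of the class, the level used throughout) in replicates 1, 2 and 3, against 4.38, 4.5 and 4.79 in CD8 T cells. Its levels did not overlap between the classes, a log2 difference of 2.49 ± 0.22 (edgeR's quasi-likelihood test, Benjamini-Hochberg adjusted p = 1.12e-04). Runx3, which drives the CD8 programme, was lower than in CD8 T cells by -0.79 ± 0.10 on the same scale, at 207, 202 and 102 CPM against 411, 345 and 137.

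Cd4 RNA is sparse, and this sets the edge of the class. Of the 591 cells, 238 (40.3%) entered with exactly 1 Cd4 UMI: 42, 138 and 58 in replicates 1, 2 and 3. Just outside, 255, 416 and 376 T cells had no Cd4, Cd8 or Foxp3 UMI, and 15, 24 and 2 passed every limit but had exactly 1 Cd8 UMI. Another 8, 7 and 10 passed every other limit but had exactly 1 Foxp3 UMI. A regulatory cell whose Foxp3 RNA was missed would fall inside the class, and how many did was not tested. Cells with exactly 2 CD3 UMIs numbered 5, 15 and 8, and those that failed with exactly 1 numbered 2, 8 and 3. Cells with exactly 2 myeloid UMIs numbered 12, 21 and 6, and 3, 5 and 3 failed with exactly 3. A Cd4 UMI was found in 4.40%, 4.65% and 1.97% of T cells that had a Cd8 UMI but otherwise met the same limits, and in 0.546%, 0.378% and 0.171% of endothelial barcodes, which do not make CD4 and were taken as barcodes with at least 2 UMIs over Pecam1 and Cdh5 and none of Ptprc or CD3. Median UMIs per cell were 8736.5, 6883 and 7407 in the conventional CD4 T cells, with a range of 525 to 50041 over all 591.

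Allogeneic replicate 3 stood apart from replicates 1 and 2, and results that turn on it are given with that value beside them. Among the conventional CD4 T cells of replicate 3, 27 (28.4%) held more than 2 UMIs of collagen genes, against 1 and 3 cells in replicates 1 and 2. The summed level of 5 fibroblast markers was 4390.2 CPM there and 21.4 and 106 CPM in the others, and it was similarly high in the CD8 T cells of replicate 3 (5943 CPM). Ifit1, an interferon-induced gene, stood at 12.5, 10.3 and 377 CPM in the conventional CD4 T cells of replicates 1, 2 and 3, and the immediate early gene Fos at 90.2, 99 and 518 CPM. NK cell markers were at or near 0: Klra4 and Klra8 had no UMI in the class, and the 5 NK markers summed to between 2.41 and 8.9 CPM. Markers of other blood cells were present. In replicates 1, 2 and 3 the 5 B cell markers summed to 30.8, 32.1 and 27.6 CPM, the 4 neutrophil markers to 37.4, 102 and 606 CPM, and the 4 red cell markers to 142, 57.9 and 64.4 CPM. Macrophage markers, of which Lyz2 is the most abundant, summed to 1111, 1044 and 1169 CPM, and to 1241, 1866 and 1461 CPM in endothelial barcodes. No barcode sequence was shared between conventional CD4 T cells of different libraries, and pairs of libraries shared 14 to 31 barcode sequences over all cells.

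Conventional CD4 T cells made up a larger share of the allogeneic grafts than of the isograft. They were 3.13% of kept barcodes in replicate 1 (95% Wilson interval 2.68 to 3.65), 4.14% in replicate 2 (3.73 to 4.59) and 1.51% in replicate 3 (1.23 to 1.84). In the isograft they were 0.0966% (0.0540 to 0.173), and these intervals cover counting error only. The allogeneic mean was 2.92% ± 1.33 (SD, n = 3), and all 3 allogeneic libraries lay above the isogeneic one. With 3 libraries against 1 an exact two-sided permutation test cannot go below p = 0.25, which is the value it gave. As a share of T cells the class was 9.38%, 14.3% and 10.9% in the allografts and 10.9% in the isograft, so allografts and isograft overlapped on that scale. When every barcode was thinned to 2000 UMIs the shares of kept barcodes averaged 1.96% against 0.0304% and the same exact permutation test gave p = 0.5. With at least 3 CD3 and 2 Cd4 UMIs required the shares were 1.75% against 0.00878% (exact permutation test, p = 0.25).

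The rest of the T cells were mostly CD8 T cells, T cells over the myeloid limit or T cells in which neither co-receptor was read. CD8 T cells were 40.5%, 37.9% and 22.8% of T cells in allogeneic replicates 1, 2 and 3. T cells with no Cd4, Cd8 or Foxp3 UMI were 15.3%, 17.5% and 43.2%, with a median of 2981, 3082 and 6070 UMIs each. T cells over the myeloid limit were 29.6%, 25.4% and 18.4%, with medians of 15993, 15082 and 11125.5 UMIs. Foxp3 T cells that met the other limits of the class numbered 24, 29 and 20.

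**Figure D1:**
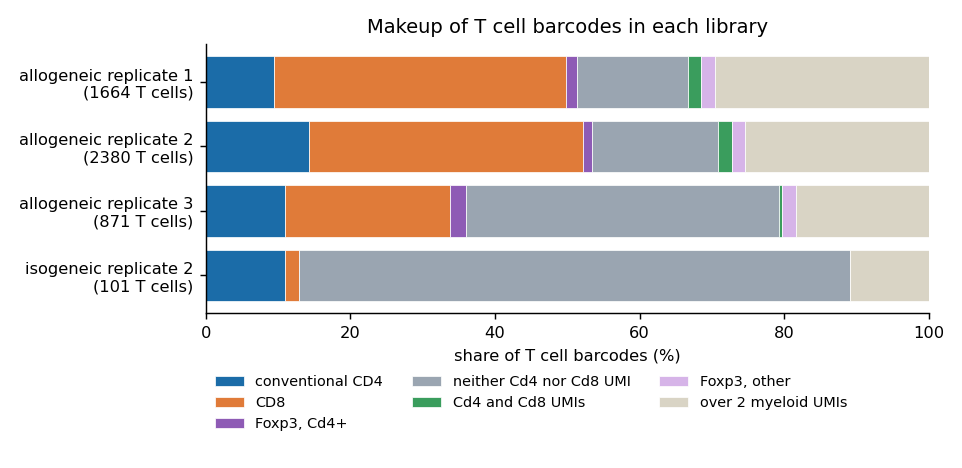
Share of T cell barcodes (percent, x axis) by class in each library (rows, with the number of T cells). Conventional CD4 T cells took 9.38%, 14.3% and 10.9% of the allogeneic T cells, and CD8 T cells took the largest share in replicates 1 and 2, while T cells with neither co-receptor read took the largest in replicate 3 and in the isograft.

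Against CD8 T cells of the same grafts, conventional CD4 T cells carried the RNA of helper ligands and cytokines, of OX40 and its relatives and of the transcription factor Maf, and less RNA of most cytotoxic genes. UMIs were summed per class and library, and the classes were compared within libraries over 11579 genes; 878 genes (7.58%) were higher and 814 (7.03%) lower at an adjusted p under 0.05. The median log2 difference of all genes was -0.01. The CD8 T cells were deeper, with medians of 12044, 8855 and 10915 UMIs. Without replicate 1 the number of genes called fell from 1692 to 946, and without replicate 2, which holds 340 of the 591 cells, to 594; without replicate 3 it was 2143. With the library left out of the model as a block 15 genes were called, among them Il21, Il10, Maf, Tnfrsf4, Zbtb7b, Lgals7 and Tbc1d4.

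Il21 encodes interleukin 21, a helper cytokine that acts on B cells and CD8 T cells. Its level was 103, 46.2 and 49.1 CPM in the conventional CD4 T cells of replicates 1, 2 and 3 and 0.417, 1.23 and 1.92 CPM in CD8 T cells. Every CD4 value lay far above every CD8 value, a log2 difference of 6.03 ± 0.37 (adjusted p = 1.41e-05). UMIs of Il21 were found in 36, 54 and 18 of the cells, that is 23.1%, 15.9% and 18.9%. The highest cell held 22.4%, 9.70% and 14.6% of the Il21 UMIs. Il21 lies at chr3:37222759-37232636 (mm10, minus strand) and shares exon bases with Gm12534 on the opposite strand. The sources used here do not give the strand setting of the counting, so whether reads of the pair were kept apart is not known.

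The 250 bases before the start of Il21 are shown because Il21 and other activation-dependent ligands were high together in this class. NFAT factors, which carry the T cell receptor signal to cytokine genes, bind DNA with the core GGAAA. In RefSeq's GRCm38.p6 the window is chr3:37232637-37232886, written here from the minus strand, 5' to 3', with the 3 matches of GGAAA on either strand (TTTCC on the strand shown) in capitals.
Il21 promoter: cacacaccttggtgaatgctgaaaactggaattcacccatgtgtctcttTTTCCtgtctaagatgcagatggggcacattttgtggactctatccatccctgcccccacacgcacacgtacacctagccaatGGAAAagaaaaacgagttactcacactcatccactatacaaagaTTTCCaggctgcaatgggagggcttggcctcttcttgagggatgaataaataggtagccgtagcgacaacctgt
The same core occurs in 55.6% of the 32851 promoter windows of that length, so its presence describes this window and does not set it apart.

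Cd40lg, which encodes CD40 ligand, the contact signal by which helper T cells license B cells and antigen-presenting cells, separated the classes in the same direction. It stood at 57.5, 54.5 and 95.1 CPM in the conventional CD4 T cells of replicates 1, 2 and 3 and at 0.729, 0.512 and 3.84 CPM in CD8 T cells. All CD4 values again lay above all CD8 values, a log2 difference of 5.76 ± 0.30 (adjusted p = 4.79e-06). The gene was read in 32.1%, 29.7% and 43.2% of the cells, against 0.742%, 0.443% and 4.02% of CD8 T cells and at most 0.189% of endothelial barcodes. With each cell thinned to 2000 UMIs the shares were 12.5%, 14.6% and 21.6% of conventional CD4 T cells. Cd40lg lies at chrX:57212143-57224042 (mm10, plus strand).

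Other ligands and cytokines were higher too. Of 21 tested genes of the list of cytokines, chemokines and ligands, 9 were higher and 4 lower, with a median of 0.37. Tnfsf8, the ligand of CD30, stood at 55.8, 53.4 and 112 CPM against 9.9, 9.31 and 21.1 in CD8 T cells (2.45 ± 0.13 on the log2 scale), and Tnfsf11, the ligand of RANK, differed by 2.21 ± 0.24. Il10, a cytokine that restrains myeloid cells, was read at 125, 134 and 75.7 CPM against 5.73, 12 and 12.8, with no overlap and a log2 difference of 3.59 ± 0.26 (adjusted p = 4.55e-05). The 4 lower genes were the chemokine genes Xcl1, Ccl5 and Ccl4 and the gene of the TNF family ligand LIGHT, Tnfsf14. Xcl1, which attracts cross-presenting dendritic cells, differed most of these, at 24.9, 13.1 and 25.6 CPM against 332, 441 and 3507 (-5.42 ± 0.42).

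Il4 and Il13, the type 2 cytokines, were higher than in CD8 T cells but came from very few cells. Il13 was read in 6, 17 and 2 conventional CD4 T cells of replicates 1, 2 and 3, and its level was 18.4, 19 and 307 CPM against 0.417, 0.205 and 2.56 CPM in CD8 T cells (6.41 ± 0.24, adjusted p = 1.53e-06). In replicate 3, 280 of the 300 Il13 UMIs came from 1 cell of 15946 UMIs, and the level without it was 20.8 CPM, close to that of replicates 1 and 2. That cell also carried 10 UMIs of Gata3, 7 of the IL-33 receptor gene Il1rl1, 3 of Il4 and 17 of Ifng, and none of the mast cell and basophil genes Mcpt8, Ms4a2, Kit and Cpa3. Il4 was read in 5, 11 and 2 cells, at 35.6, 9.65 and 4.09 CPM against 0.313, 0.409 and 1.92. Of the 7 tested genes of the T helper 2 list, 4 were higher and none lower: Gata3, Il4, Il13 and the chemokine receptor gene Ccr8.

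Ifng, the gene of interferon gamma, did not separate the classes. It was read at 595, 319 and 2062 CPM in the conventional CD4 T cells of replicates 1, 2 and 3 and at 624, 523 and 8225 CPM in CD8 T cells, and the ranges overlapped. The log2 difference of -0.96 ± 0.28 had an adjusted p of 0.0501, just over the threshold. In replicate 3 a single conventional CD4 T cell held 1340 of the 2017 Ifng UMIs, and the level without it was 706 CPM. The T helper 1 list to which Ifng belongs had 5 genes higher, 1 lower and 9 not called of 15, with a median of 0.09. Tbx21, its master regulator, was at 92.5, 70 and 39.9 CPM against 78.1, 68.6 and 47.3, a difference of 0.03 ± 0.13. The chemokine receptor gene Cxcr3 (0.78 ± 0.12), the IL-12 receptor gene Il12rb2 (0.89 ± 0.11) and Stat4 (0.51 ± 0.13), which relays the IL-12 signal, were higher. The call of Stat4 was lost without replicate 1 and that of Cxcr3 without replicate 2.

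**Figure D2:**
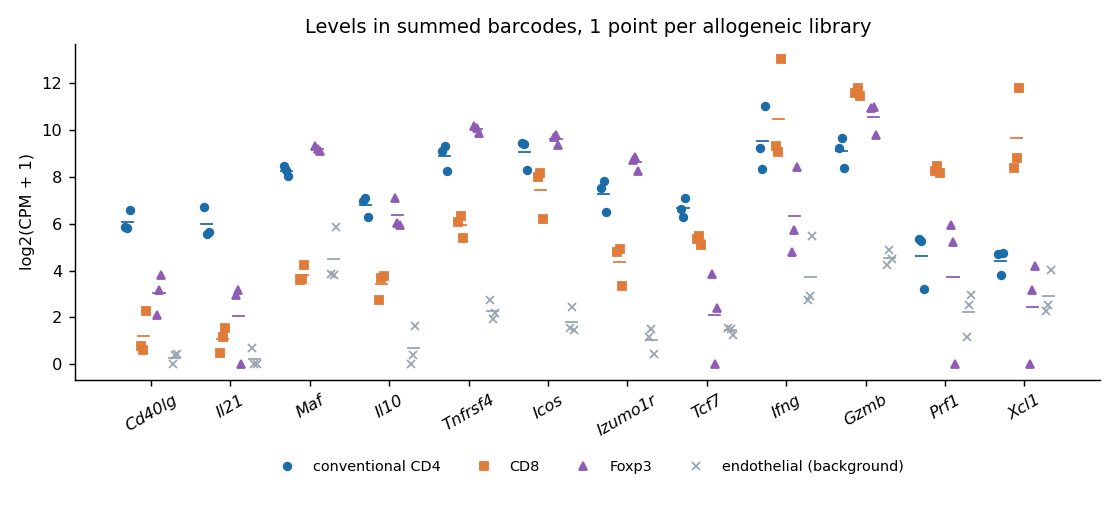
Level of 12 genes (log2 of CPM plus 1, y axis) in conventional CD4, CD8, Foxp3 and endothelial barcodes, 1 point per allogeneic library and a line at the mean of the points. Cd40lg and Il21 are higher in conventional CD4 T cells than in the other 3 classes, Maf, Il10, Tnfrsf4, Icos and Izumo1r are high in both CD4 classes, and Prf1 and Xcl1 are high in CD8 T cells.

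Maf, a transcription factor that drives Il21 and Il10 in helper T cells, stood at 347, 311 and 259.7 CPM in the conventional CD4 T cells of replicates 1, 2 and 3 and at 11, 11.4 and 17.6 CPM in CD8 T cells. Every CD4 value lay above every CD8 value, with a log2 difference of 4.61 ± 0.18 (adjusted p = 1.58e-06). It lies at chr8:115682942-115707794 (mm10, minus strand) and shares exon bases with Gm15655 on the opposite strand. Maf was read in 67.3%, 75.9% and 62.1% of the cells. Of the 12 tested genes of the follicular helper list, 7 were higher and 1, Pdcd1, was lower, with a median of 0.95. Besides Il21 and Maf, the higher ones were Bcl6 (0.94 ± 0.22), Tox2 (2.45 ± 0.29), Sh2d1a (0.96 ± 0.12), the signalling adaptor SAP, Slamf6 (1.02 ± 0.15) and Cxcr5. The call of Bcl6 was lost without replicate 1. Cxcr5, the receptor that brings follicular helper cells to B cell follicles, was scarce all the same, with 23 UMIs in the whole class.

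The receptors for co-stimulation followed the same split. Of 13 tested genes, 9 were higher, 3 were lower and 1 was not called, with a median of 1.34. Tnfrsf4 stood at 539.7, 628 and 299 CPM in the conventional CD4 T cells of replicates 1, 2 and 3 and at 65.4, 79.4 and 40.6 CPM in CD8 T cells, a difference of 2.95 ± 0.09 (adjusted p = 2.88e-07), and the values did not overlap. Icos was at 698, 665 and 307 CPM against 254, 282 and 73.2 (1.51 ± 0.12), Tnfrsf18 (GITR) differed by 1.66 ± 0.14 and Tnfrsf25 (death receptor 3) by 3.53 ± 0.80. Cd28, the main co-stimulatory receptor of T cells, was at 488, 489 and 313 CPM against 249, 244 and 152 (0.97 ± 0.07). The lower genes were Tnfrsf9 (4-1BB, -0.85 ± 0.09), Cd226 (-0.75 ± 0.19) and Crtam (-3.17 ± 0.24), receptors also found on cytotoxic cells. Without replicate 1 or without replicate 2 the call of Cd226 was lost.

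Inhibitory receptors were split in the same manner, with 6 of 14 tested genes higher and 4 lower. Ctla4, which competes with CD28 for its ligands, was at 713, 748 and 352 CPM against 375, 338 and 73.8 (1.34 ± 0.18). Its values in replicate 3 were low in both classes, so the ranges overlapped although CD4 T cells were higher in each library. Btla (1.50 ± 0.28), Tigit (0.88 ± 0.12), Lag3 (0.52 ± 0.13), Cd200r1 (2.45 ± 0.28) and Nt5e (0.63 ± 0.14) were higher as well. Pdcd1, which encodes PD-1, was slightly lower at 400.3, 426 and 74.6 CPM against 529, 592 and 88.9 (-0.42 ± 0.08), and Havcr2 (TIM-3), Cd244a and Cd160 were lower. Without replicate 1 or without replicate 2 the calls of Lag3, Nt5e and Pdcd1 were lost. Vsir, the VISTA gene of the study's title, was read in conventional CD4 T cells at 84.8, 78.3 and 44 CPM and in CD8 T cells at 54, 55.2 and 45.4 CPM, and its difference of 0.42 ± 0.15 was not called (adjusted p = 0.0901).

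T cell receptor and signalling genes were higher in conventional CD4 than in CD8 T cells, with 12 of 20 called higher, none lower and a median of 0.53. Cd5, a brake on T cell receptor signals, had the largest difference (1.31 ± 0.11), followed by Cd2 (1.13 ± 0.08), an adhesion receptor, and Cd247 (1.09 ± 0.08), the zeta chain. The kinase gene Zap70 differed by 0.81 ± 0.10 and Lck by 0.51 ± 0.08. This list is of the same complex as the CD3 genes that chose the T cells. Both classes met the same raw CD3 limit at unlike depth, with medians of 8736.5, 6883 and 7407 UMIs against 12044, 8855 and 10915. Cd3g, which the selection read, stood at 1691, 1665 and 865 CPM against 1221, 1237 and 519 in CD8 T cells. The part of the selection in this result was not tested.

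Genes of resting and recirculating T cells were mostly higher than in CD8 T cells, with 9 of 16 called higher and 1, Dapl1, lower, and a median of 0.60. Tcf7, the transcription factor TCF-1 of naive and stem-like T cells, was at 97.9, 76.9 and 136 CPM against 40, 43.5 and 32.9, a difference of 1.29 ± 0.18 with no overlap. S1pr1, the receptor by which T cells leave tissue for lymph and blood, differed by 1.52 ± 0.16, Lef1 by 1.02 ± 0.15 and Il7r, which lost its call without replicate 2, by 0.81 ± 0.22. Among chemokine receptors and adhesion genes 12 of 19 were higher, with Cxcr4 (1.32 ± 0.17) and Ccr8 (4.90 ± 0.37) among them, and Ly6c2 was lower (-2.22 ± 0.22).

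The cytotoxic list was the mirror image, with 14 of 16 genes lower, 1 higher and a median of -2.23. Gzmb, granzyme B, was read in the conventional CD4 T cells at 592, 805 and 333 CPM in replicates 1, 2 and 3, against 3019, 3474 and 2807 CPM in CD8 T cells (-2.52 ± 0.16, adjusted p = 1.61e-05). It had a UMI in 43.6%, 62.6% and 40.0% of conventional CD4 T cells and in 84.3%, 86.9% and 84.9% of CD8 T cells. Endothelial barcodes, with medians of 6807, 4912 and 2805 UMIs, had one in 14.2%, 14.9% and 5.14%. Thinned to 2000 UMIs the shares were 28.9%, 44.3% and 22.7% of conventional CD4 T cells and 3.82%, 5.04% and 3.20% of endothelial barcodes. Prf1, the pore protein perforin, was at 39.7, 37.6 and 8.18 CPM against 306, 346 and 284 (-3.38 ± 0.23). Eomes, a transcription factor of cytotoxic cells, had 3 UMIs in all 591 cells. The NK cell receptor genes Klrc1, Klrc2 and Klrk1 fell by between 2.84 and 3.08 on the log2 scale; Klrc1 and Klrc2 are near copies and their reads may be shared. Srgn, the proteoglycan serglycin that packs secretory granules, was the higher gene (0.82 ± 0.07).

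For other lists the counts were as follows. Of 18 cell cycle genes edgeR called none in either direction (median 0.03), with 1 at an unadjusted p under 0.05 and none called by DESeq2, so at this depth no difference in cycling between conventional CD4 and CD8 T cells was detectable. Of 17 glycolysis genes 2 were higher and 1 lower (median 0.00). Of 26 interferon response genes 10 were higher and none lower, with a median of 0.31 and examples in Ifi27l2a (1.60 ± 0.16) and Slfn1 (1.61 ± 0.14). Among tested markers of other cell types, 3 of 5 of fibroblasts, 2 of 2 of NK cells, 1 of 1 of dendritic cells, 1 of 2 of B cells and 1 of 7 of macrophages were lower in conventional CD4 T cells, and 1 of 5 of endothelial cells was higher. None of 4 neutrophil, 3 red cell or 5 cardiomyocyte markers was called by edgeR (1, 1 and 0 at an unadjusted p under 0.05) or by DESeq2. The part of these markers in the result was not tested, and with collagen-bearing barcodes left out 1549 genes were called in place of 1692.

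Il13, Il21, Cd40lg, Maf, Il10 and Tnfrsf4, described above, were 6 of the 10 genes with the largest rise over CD8 T cells, and the other 4 belonged to no list: Lgals7, Asb2, Tbc1d4 and Podnl1. Lgals7, which encodes galectin 7, stood at 133, 59 and 106 CPM against 2.19, 2.35 and 4.16 (5.16 ± 0.23), and in replicate 3, 66 of its 104 UMIs came from 1 cell. Tbc1d4, a regulator of glucose transporter traffic, was at 149, 73.8 and 86.9 CPM against 11.8, 7.78 and 10.2 (3.37 ± 0.15). Asb2 and Podnl1 differed by 3.94 ± 0.32 and 3.03 ± 0.14.

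Few of the genes tested were called between conventional CD4 T cells and Foxp3 T cells, the regulatory cells of the same grafts. The Foxp3 sums held 780561 UMIs in all, against 22501972 for CD8 T cells, and edgeR gave 838 genes an unadjusted p under 0.05. The low number of calls is thus no measure of how alike the classes were. With 24, 29 and 20 Foxp3 T cells to sum, 7866 genes could be tested, and 52 (0.661%) were higher and 67 (0.852%) lower in conventional CD4 T cells. Without replicate 1 the number called fell from 119 to 13, of which 9 were higher and 4 lower in conventional CD4 T cells. Of the genes named below, Ikzf2, Il2ra, Tnfrsf9, Gzmb, Ifng, Il13, Tcf7 and the collagen genes were among these 13. Without replicate 3 the number rose to 291. Of 14 tested genes of the regulatory list, 10 were lower in conventional CD4 T cells, none was higher and the median was -1.65, against 0.02 for all genes. Ikzf2 (Helios) was at 253, 211 and 102 CPM against 1433, 1413 and 1212 in Foxp3 T cells, a difference of -2.88 ± 0.19 (adjusted p = 4.00e-04) with no overlap. Il2ra, the high-affinity IL-2 receptor chain, was at 97.9, 61 and 109 CPM against 442, 330.0 and 428 (-2.16 ± 0.18), and Tnfrsf9, Lrrc32, Itgb8 and Areg were lower too. Tnfrsf4 was higher still in Foxp3 T cells (1139, 1087 and 942 CPM, -1.13 ± 0.17 for conventional cells), as were Maf (-0.90 ± 0.14), Izumo1r (-1.27 ± 0.18) and Gzmb (-1.44 ± 0.14).

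Of 17 tested cytokine genes 4 were higher in conventional than in Foxp3 T cells, 1 was lower and 12 were not called. Ifng was at 595, 319 and 2062 CPM in conventional CD4 T cells and 26.8, 52.3 and 343 CPM in Foxp3 T cells, higher in each library by 3.09 ± 0.28 on the log2 scale, although the ranges overlapped, with replicate 3 high in both classes. Il21 (6.7, 8.05 and 0 CPM in Foxp3 T cells, 3.72 ± 0.50) and Cd40lg (3.35, 8.05 and 12.9 CPM, 3.16 ± 0.39) were higher in conventional cells with no overlap. In Foxp3 T cells 3 counts would correspond to 10.0, 12.1 and 12.9 CPM in replicates 1, 2 and 3, so these levels rest on few UMIs. Tnfsf8 had no UMI in the 73 Foxp3 T cells, and against a floor of 3 counts over that group it was at least 16.8-fold higher. Il13 had none there either, but 280 of its 386 UMIs in conventional CD4 T cells came from the 1 cell of replicate 3 described above, so no fold is given. Tcf7, at 13.4, 0 and 4.28 CPM in Foxp3 T cells, was higher by 4.02 ± 0.48, and the IL-12 pathway genes Il12rb2 (2.15 ± 0.32) and Stat4 (1.62 ± 0.27) were higher. Il10 was not called (0.39 ± 0.26, adjusted p = 0.697). Fibroblast genes moved with this comparison: Col1a1, Col1a2 and Dcn were called higher, with Col1a1 at 3.56, 17.6 and 1079 CPM against 0, 0 and 68.5, and the 1 tested B cell marker was called lower. The 4 neutrophil markers summed to 840.5, 1147 and 60 CPM in Foxp3 T cells of replicates 1, 2 and 3, and of 3 tested edgeR called none (0 at an unadjusted p under 0.05, and 0 called by DESeq2). The part of these markers in the result was not tested. With collagen-bearing barcodes left out 216 genes were called, 105 of them among the 119, and the calls of these 3 genes and of Il13 were lost.

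Set against all other T cells at once, helper ligands were again among the largest rises. Of 13410 genes, 1222 (9.11%) were higher and 1785 (13.3%) lower. Il13, Lgals7, Il21 (3.68 ± 0.39), Cd40lg (3.13 ± 0.22), Il10 (2.46 ± 0.23), Asb2, Tbc1d4, Tnfsf8 (2.32 ± 0.15), Podnl1 and Tnfrsf4 (2.04 ± 0.19) were the 10 largest rises, and Xcl1 the largest fall (-4.47 ± 0.41). The other large falls were genes of myeloid cells (Fcgr2b, Ly86, Syk, Pla2g7, C1qc, Inhba) and of plasma cells (Jchain, Igkc, Igha). The other T cells were not held to the myeloid limit and 29.6%, 25.4% and 18.4% of all T cells exceeded it; with that limit applied to both sides 1337 genes were called in place of 3007. Without replicate 1 the number was 1469, without replicate 2 960 and without replicate 3 3895. Of 18 cell cycle genes 12 were higher in conventional CD4 T cells and none lower (median 0.44), and DESeq2 called 8. Against CD8 T cells, which were held to the myeloid limit, edgeR called none of the same 18 (median 0.03).

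Within the class, cells with and without an Ifng UMI differed in a small set of genes. An Ifng UMI was read in 75, 136 and 56 of the conventional CD4 T cells of replicates 1, 2 and 3, or 48.1%, 40.0% and 58.9%. Thinned to 2000 UMIs the shares were 31.6%, 23.2% and 46.6%. These cells were deeper, with medians of 10632, 9024 and 7741 UMIs against 6701, 5635 and 7007, and levels are CPM within each side. Of 8598 genes, 43 (0.5%) were higher in the cells with Ifng and 35 (0.407%) lower. Without replicate 2 the call was kept by 5 genes, Ccl3, Ccl4, Il13, Rgs16 and Tcf7, and lost by all the other genes named for this split. Without replicate 1 258 genes were called and without replicate 3 169.

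The chemokine genes Ccl3 and Ccl4, which draw other leukocytes, were higher in the cells with Ifng. Ccl3 was at 720.2, 361 and 1129 CPM with Ifng and 48.5, 57 and 11.6 CPM without, in replicates 1, 2 and 3, a log2 difference of 3.83 ± 0.40 (adjusted p = 0.00349). Ccl4 was at 1656, 1278 and 3417 CPM against 223, 302 and 200.2 (3.01 ± 0.28). The cell that held most of the Ifng of replicate 3 carried 677 Ccl4 and 358 Ccl3 UMIs and gave 49.8% of the Ccl3 of that library. Of 19 tested cytokine genes 6 were higher and none lower: Ccl3, Ccl4, Il4, Lta (1.45 ± 0.23), Il21 (1.44 ± 0.22) and Csf1 (1.40 ± 0.24). DESeq2 called 3 of the 19. The highest cell held 56.7%, 53.6% and 75.0% of the Il4 UMIs of the class in replicates 1, 2 and 3. Il21 and Ifng met in the same cells: 23 of 36, 34 of 54 and 15 of 18 cells with Il21 also had Ifng (63.9%, 63.0% and 83.3%), against 43.3%, 35.7% and 53.2% of cells without Il21, which were shallower. Havcr2 (1.95 ± 0.27), Pdcd1 (0.88 ± 0.14), Tnfrsf9 (0.89 ± 0.16), Prf1 (1.40 ± 0.25) and Rgs16 (1.98 ± 0.15), a regulator of G protein signals, were higher as well. Tbx21 was not called (0.52 ± 0.22, adjusted p = 0.307), and edgeR called none of 14 tested T helper 1 genes, with 9 at an unadjusted p under 0.05 and none called by DESeq2. Among the neutrophil markers S100a9 was called higher (3.50 ± 0.51), and 148 of its 174 UMIs in replicate 2 came from 1 cell.

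Genes of the resting list were mostly higher in the cells without Ifng. Of 14 tested genes of the resting and recirculating list 8 were lower in cells with Ifng and none higher, with a median of -1.32 against 0.01 for all genes. Tcf7 stood at 12.4, 27.4 and 53.7 CPM with Ifng and 212, 132 and 287 CPM without, a difference of -2.70 ± 0.27 (adjusted p = 0.00317) in which no value overlapped. The 2 sets of cells were not separate: 9 of 39, 19 of 85 and 24 of 47 cells with a Tcf7 UMI also had Ifng. That is 23.1%, 22.4% and 51.1%, against 56.4%, 45.9% and 66.7% of cells without Tcf7. Bach2, which holds back effector genes, differed by -1.57 ± 0.17, S1pr1 by -1.60 ± 0.26, Lef1 by -1.34 ± 0.17 and Klf2, the factor that drives S1pr1, by -1.23 ± 0.24. Slamf6, a receptor of less differentiated T cells, was at 36.3, 46.4 and 60 CPM against 141, 134 and 131 (-1.48 ± 0.19). Aff3, Sidt1, Rras2 and Atp10d were lower by between 1.36 and 1.91.

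**Figure D3:**
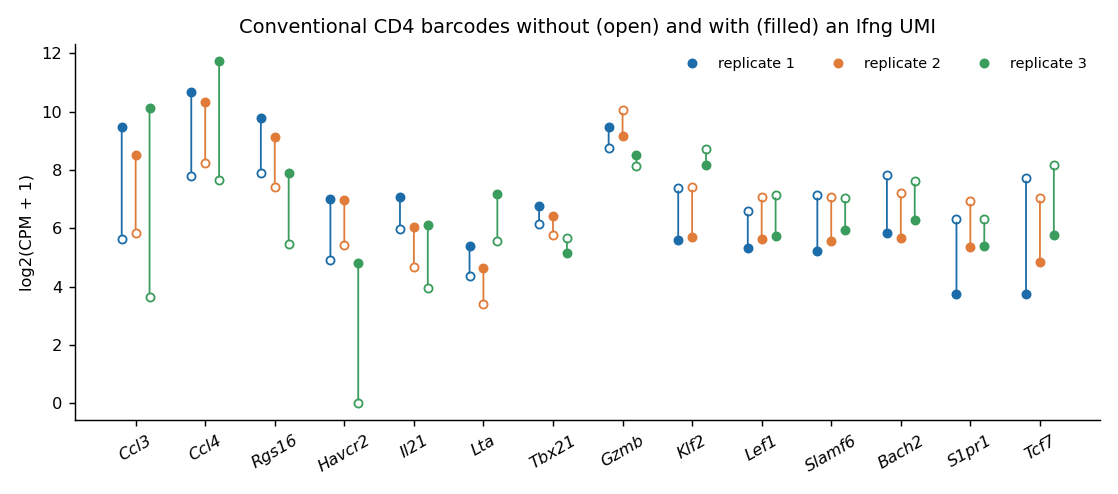
Level of 14 genes (log2 of CPM plus 1, y axis) in conventional CD4 T cells with (filled) and without (open) an Ifng UMI, with a line joining both values of each allogeneic library. Ccl3, Ccl4, Rgs16, Havcr2, Il21 and Lta are higher with Ifng in all 3 libraries, Tcf7, S1pr1, Bach2, Slamf6, Lef1 and Klf2 are lower in all 3, and Gzmb moves in different directions.

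Cells with cell cycle RNA were taken as dividing. At least 3 UMIs over 18 cell cycle genes were found in 95, 178 and 39 cells of replicates 1, 2 and 3 (60.9%, 52.4% and 41.1%), or 38.8%, 42.7% and 28.4% when each was thinned to 2000 UMIs, and none in 30, 83 and 33. Depth differed strongly between them, with medians of 11702, 10033 and 13894 UMIs against 5217.5, 3760 and 3045. Of 7147 genes 1001 (14.0%) were higher in the dividing cells and 682 (9.54%) lower, and without replicate 2 the number called fell from 1683 to 775. The mitotic genes Nuf2, Ckap2l, Aspm and Kif4 and the histone gene H2ac22 were not read by the split. They had no UMI in the cells without cell cycle UMIs. Against a floor of 3 counts over that group they were at least 11.6-fold to 15.5-fold higher in the dividing cells. These genes belong to the same process as those that made the split, and the group held 642305 UMIs in all. Their absence there is therefore no independent check. Il13 was likewise absent there.

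Many T cell genes were lower in the dividing cells, and some glycolysis genes were higher. The list of T cell receptor and signalling genes had 10 of 20 lower, that of the CD4 and CD8 lineages 8 of 12 lower and 1 higher, and that of cytokine receptors 9 of 17 lower and 1 higher. Of 17 glycolysis genes 6 were higher, among them Ldha, lactate dehydrogenase, at 1209, 1249.5 and 1267 CPM against 976, 829 and 737 (0.67 ± 0.13), and Pgk1 (0.67 ± 0.18), and 2 were lower, the glucose transporter gene Slc2a3 and Hif1a. Il2ra was higher at 115, 67.8 and 136 CPM against 24.3, 44.3 and 28.9 (1.55 ± 0.33), and Ifng by 1.47 ± 0.26, where replicate 3 includes the cell with 1340 Ifng UMIs among the dividing cells. Of 14 resting genes 12 were lower and none higher, with a median of -1.32. Tcf7 was at 74, 29.9 and 64 CPM in dividing cells and 206, 204 and 397 CPM in the others (-2.18 ± 0.25, adjusted p = 4.60e-07), and Il7r differed by -1.80 ± 0.22. Of 11 co-stimulatory genes 7 were lower and 1 higher, with Slamf6 (-2.06 ± 0.23), Cd28 (-0.60 ± 0.15), Icos (-0.54 ± 0.15) and Cd40lg (-0.75 ± 0.25) among the lower. Of 24 interferon response genes 9 were lower and none higher; Ifit1 was at 11.3, 4.27 and 151 CPM against 12.1, 38.4 and 809, so most of its UMIs lay in replicate 3. Vsir was lower in the dividing cells, at 67.9, 60.2 and 39 CPM against 152, 145 and 65 (-1.01 ± 0.25). Of these genes Pgk1, Icos and Vsir lost their call without replicate 2, Cd28 without replicate 1 or 2 and Cd40lg without replicate 2 or 3.

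Markers of other cells moved with this split. Of 4 tested fibroblast markers all 4 were higher in dividing cells, with Col1a1 at 3.02, 21.3 and 867 CPM against 6.06, 8.85 and 137, 1 of 3 neutrophil markers and 1 of 7 macrophage markers were lower, and the red cell genes Hba-a1 (-3.06 ± 0.47, not called without replicate 1) and Hbb-bs (-2.60 ± 0.39) were lower. Their part in the result was not tested; with collagen-bearing barcodes left out 1427 genes were called in place of 1683. Ifng and division overlapped: 55, 95 and 27 cells had both an Ifng UMI and at least 3 cell cycle UMIs, or 73.3%, 69.9% and 48.2% of cells with Ifng against 49.4%, 40.7% and 30.8% of those without. Thinned to 2000 UMIs the shares were 37.5%, 53.3% and 29.3% against 39.4%, 39.5% and 27.7%. At equal depth the difference was thus smaller in all 3 replicates, and in replicate 1 it had the opposite sign.

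**Figure D4:**
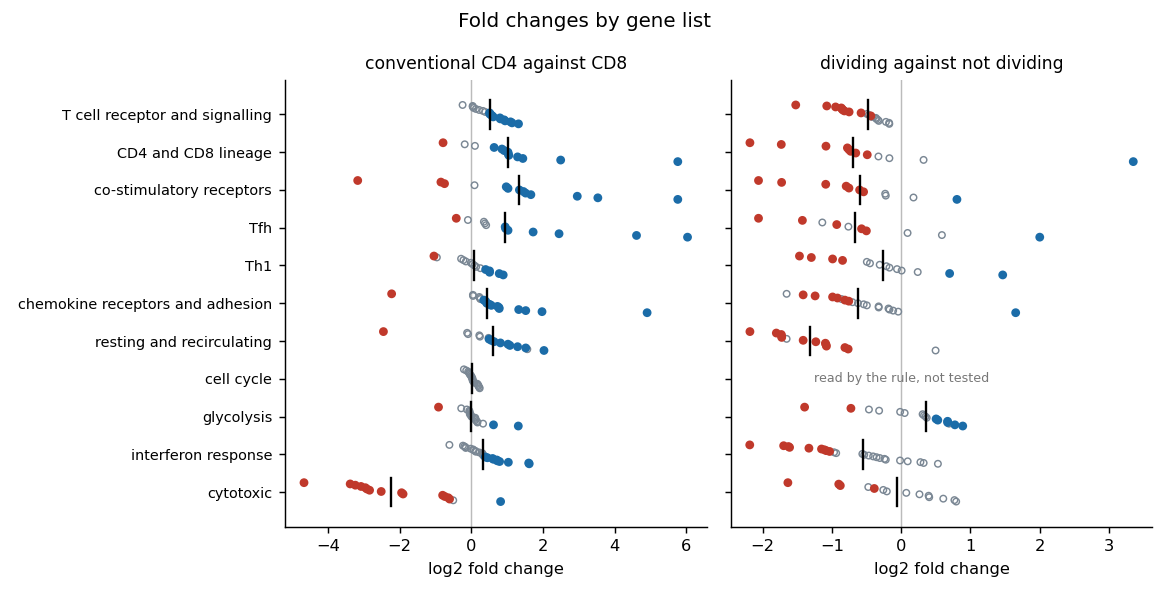
Log2 fold change of each tested gene (points, x axis) by list (rows) for conventional CD4 against CD8 T cells (left) and for dividing against non-dividing conventional CD4 T cells (right), filled blue where called higher and red where called lower, with a bar at the list's median. Against CD8 T cells the cytotoxic list lies to the left with a median of -2.23 and the co-stimulatory list to the right with a median of 1.34, and in dividing cells the resting list lies to the left with a median of -1.32.

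Genes of the class differed in how evenly their UMIs were spread over its cells. The highest cell held 2.55%, 1.35% and 5.33% of the Icos UMIs of replicates 1, 2 and 3, and 4.79%, 1.55% and 5.91% of the Maf UMIs. For Ifng it held 20.6%, 9.29% and 66.4%, for Il13 41.9%, 27.3% and 93.3%, and for Ccl3 26.8%, 28.1% and 49.8%. The highest cell thus held a smaller share of Icos and Maf than of Ifng, Il13 or Ccl3 in each library. Among the cells that had any, the median was 7, 5 and 3 UMIs for Icos and 3, 2.5 and 3 for Ifng.

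**Figure D5:**
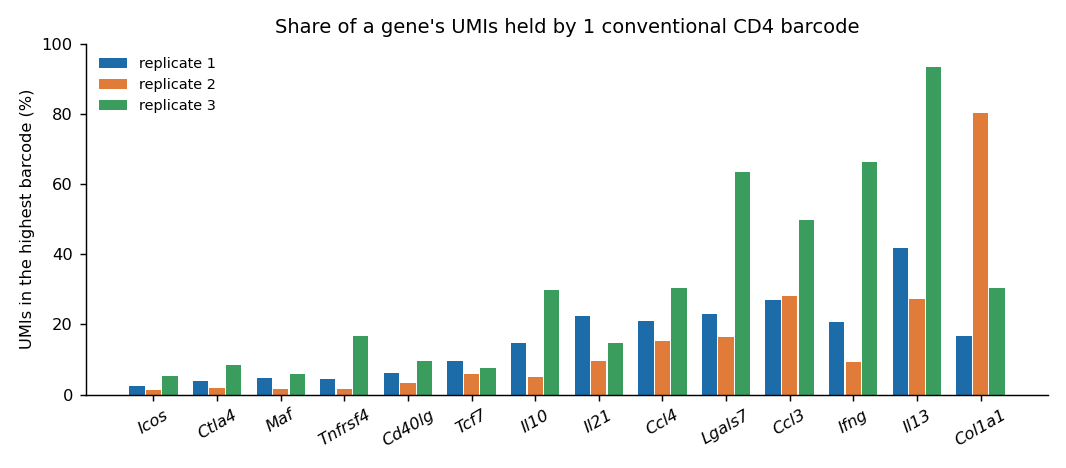
Share of a gene's UMIs held by the single highest conventional CD4 T cell (percent, y axis) for 14 genes, with a bar for each allogeneic library. Icos, Ctla4 and Maf stay under 10% in all 3 libraries, while Il13 and Ifng reach 93.3% and 66.4% in replicate 3.

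Cytokines of other helper programmes were at or near the detection limit. Il2, the T cell growth factor, had 11 UMIs in the class, at 2.37, 2.07 and 1.02 CPM in replicates 1, 2 and 3. Il5 and Il3 had none, where 3 counts would correspond to 0.539 CPM over the class. Il17a, the cytokine gene of T helper 17 cells, had 12 UMIs, all in replicate 1. Csf2, which encodes the myeloid growth factor GM-CSF, was read at 7.71, 2.41 and 24.5 CPM.

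The isograft held too few such cells for any test. Its 11 conventional CD4 T cells had 37597 UMIs in all, a median of 1679 per cell, among them 12 of Cd4, 8 of Icos, 3 of Cd40lg, 4 of Ifng and none of Il21. They also had 65 UMIs of Col1a1, and with the selection raised to 3 CD3 and 2 Cd4 UMIs 1 of them remained, against 112, 199 and 37 in the allografts.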

How the data were processed

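The deposited values were counts of UMIs per gene and barcode, 1 matrix per library. The matrix headers name Cell Ranger 6.1.0 per the file headers, whereas the submitters' processing notes list Cell Ranger 3.1.0 and mm10. The annotation and the use of strand in counting are not given in the sources used here. Libraries held 51054446, 63434265 and 51463909 UMIs (allogeneic replicates 1, 2 and 3) and 100038951 (isogeneic) over all deposited barcodes, kept or not. Doublets were not removed in the reported values. Their removal with Scrublet was an alternative.

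Counts were summed per class and library and compared with edgeR 4.0.16 (TMM scaling, filterByExpr, quasi-likelihood F test, library as a block) in R 4.3.3, without the genes that the selection read. P-values were adjusted by Benjamini and Hochberg over all genes tested, with a threshold of 0.05. Residual degrees of freedom were 2 in each comparison. Each gene's dispersion was also moderated by edgeR with values shared over all genes tested, so the p-values do not rest on these 2 alone. The block rests on both classes coming from the same library. The standard error is the log2 fold change divided by the square root of F. DESeq2 1.42.0 was an alternative. The code was tested on simulated data. Python 3.11.15, numpy 2.4.6, scipy 1.17.1, scanpy 1.11.5 and matplotlib 3.10.9 were used for the rest.

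Named genes were the 10 (class comparisons) or 8 (splits within the class) with the largest change in each direction. They had to be called, move the same way in all 3 libraries and reach 50 CPM in the higher class. Predicted, ribosomal and mitochondrial genes were left out, and any gene of the lists could also be named. Genes that were named outside this rule (Ifit1 and Fos for the description of replicate 3 among them) are given as values. A further split of the class is not reported here. Members and lists were chosen with earlier results of these data known. Positions came from GENCODE M21 (mm10), which held 32403 of the 34097 deposited identifiers. Of 122 genes looked up there, 28 shared exon bases with another gene on the same or the opposite strand. Promoter sequences came from RefSeq. A share of 0 allows 3 counts.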

Additional observations from a re-analysis of the deposited data

How the results depend on the processing

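The comparisons rest on 3 libraries and on few cells per class, and counts of called genes moved more than 1.5 times under many alternatives. Of 1729 values of single genes under an alternative, 1483 kept their direction and their side of the threshold, 237 kept the direction and lost the call, 6 gained it and 3 reversed. The reversed ones were never called: Fos against CD8 T cells, at -0.080 with the stricter selection, and Tbx21 against CD8 T cells, at -0.031 without a filter on low counts and between -0.10 and 0.12 on leaving out a library. Leaving the library out as a block accounted for 116 of the lost calls. Depth limits genes under a few UMIs per class most, and for Foxp3 T cells it is 73 cells in all.

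Against other T cells 3007 genes were called. The number was 1962 with DESeq2, 1742 without collagen-bearing barcodes (an alternative chosen after seeing the data), 1337 with the myeloid limit on both sides and 302 without the replicate block, and leaving out a library gave 960 to 3895. Against CD8 T cells 1692 genes became 840 with DESeq2, 710 with the stricter selection and 15 without the replicate block, with 594 to 2143 on leaving out a library. Against Foxp3 T cells 119 became 216 without collagen-bearing barcodes, 185 without doublets, 383 without a filter on low counts, 67 with the stricter selection and 17 without the replicate block, with 13 to 291. For cells with against without Ifng 78 became 47 with DESeq2, 167 with at least 2 Ifng UMIs, 371 without a filter, 119 with the stricter selection and 0 without the replicate block (edgeR, 469 at an unadjusted p under 0.05), with 5 to 258. For dividing cells 1683 became 693 with DESeq2, 1004 with the stricter selection and 602 without the replicate block, with 775 to 1690. The cause of these moves was not tested. Leaving out 1 library left 1 residual degree of freedom, and the number called fell in some of these fits and rose in others. The mean share of conventional CD4 T cells lay between 2.32% and 3.63% on leaving out a library. The groups share only the number 2 in the labels, so the allogeneic and isogeneic libraries were not paired.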
